A study of Drosophila melanogaster with 6 samples.

Results

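The 10 genes described here encode the main enzymes of glycolysis in *Drosophila melanogaster* and lactate dehydrogenase. They were taken by FlyBase symbol as *Hex-A*, *Pfk*, *Tpi*, *Gapdh1*, *Gapdh2*, *Pgk*, *Pglym78*, *Eno*, *PyK* and *Ldh*, and all 10 were found among the 16455 genes of the deposited files. Wing imaginal discs, the larval epithelial sheets that form the wings, were collected from larvae of the third instar after 16 h of ectopic expression of the pro-apoptotic gene *rpr*. The 6 libraries were 3 labelled control, which carried salE/Pv-LHG, tub-Gal80TS and lexO-rpr, and 3 labelled CR40469-KO, which carried the same transgenes and the deletion of the lncRNA *CR40469*. Cell death was restricted in place by the *salE/Pv* enhancer, which is active in the middle of the disc and controls the transcriptional activator LHG of the lexO transgene, and in time by Gal80TS, which blocks LHG until the larvae are warmed. Both groups were therefore damaged, the transgene was directed to only a part of each disc, each library was a pool of discs, and undamaged discs were not analysed here. The mutation replaced the lncRNA locus and its flanks with an *mCherry* cassette. The question of the comparison was which genes change in damaged discs when the lncRNA is deleted.

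Glycolysis splits glucose into pyruvate in the cytosol and yields ATP without oxygen. Hexokinase and phosphofructokinase commit the sugar to the pathway, the enzymes from triose phosphate isomerase to enolase process its 3-carbon products, and pyruvate kinase makes pyruvate. Lactate dehydrogenase reduces pyruvate to lactate and regenerates the NAD+ that glyceraldehyde phosphate dehydrogenase consumes. In flies, high *Ldh* is known from fast growing larvae, from tumorous discs and from tissue with low oxygen or impaired mitochondria. Expression is given in TPM, the share of each gene among the transcripts of a library after correction for transcript length, so that levels can be compared between genes.

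The labels were first checked in every library. *CR40469* was listed at 99.61, 46.44 and 82.52 TPM in control replicates 1, 2 and 3, and its level in mutant replicates 1, 2 and 3 was 535.93, 389.21 and 293.78 TPM. The deleted gene therefore went against the labels. Its sequence is nearly identical to a part of *CR34335*, a far more abundant lncRNA that was at 3521.64, 2442.97 and 3201.91 TPM in the control replicates and at 1938.29, 1928.63 and 1902.09 TPM in the mutant replicates, and RSEM divides reads that both could have given. Whether the level listed for *CR40469* comes from such reads or the labels of the groups were exchanged was not tested, and each direction below is that of the labels. The inducer *rpr* ran from 122.67 to 143.52 TPM under the control label and from 144.06 to 189.81 TPM under the mutant label. All 8 wing disc markers reached 1 TPM in all 6 libraries, with summed levels between 410 and 766 TPM. Among markers of other tissues, the 6 fat body genes summed to between 5.91 and 15.1 TPM under the control label and between 3.86 and 4.54 TPM under the mutant label, and 4 of the 6 did not overlap between the labels and were lower under the mutant label, as were 2.56% of all genes tested. The 4 trachea genes summed to between 302 and 347 TPM against between 377 and 471 TPM, and 2 of the 4 (*btl* and *verm*) did not overlap and were higher under the mutant label, as were 7.9% of all genes tested. The 5 haemocyte genes, at 2.01 to 8.25 TPM in sum, and the 8 genes of differentiated muscle, at 32 to 65.7 TPM, overlapped between the labels, as did the 5 genes of adult muscle precursors, at 61.8 to 94.6 TPM. No marker was at 0 in all libraries, and the part of these other tissues in the levels below was not tested. In bulk libraries, fewer cells of a type and less RNA per cell cannot be told apart.

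All 10 genes were expressed in the damaged discs, over a wide range of levels. *Gapdh2* was the most abundant, with a mean of 662 TPM over the 6 libraries, and it ranked 175 among all genes of the files. It was followed by *Eno* at 374 TPM, *Pgk* at 269 TPM, *Tpi* at 210 TPM, *Gapdh1* at 186 TPM, *PyK* at 139 TPM and *Pglym78* at 104 TPM. The enzymes that open the pathway were lower, with *Pfk* at 37 TPM and *Hex-A* at 29 TPM. *Ldh* was the lowest, at 13.9 TPM, a level above that of 29.2% of the 8051 genes tested. The order was the same in each of the 6 libraries. The neighbours *Tpi* and *Gapdh1*, *Gapdh1* and *PyK*, and *Pfk* and *Hex-A* had overlapping ranges over the libraries. Within a library the closest of these was *Gapdh1* over *PyK*, with a ratio of 1.003 in mutant replicate 1. Together the 10 genes held between 0.19 and 0.223% of all TPM of a library.

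**Figure D1:**
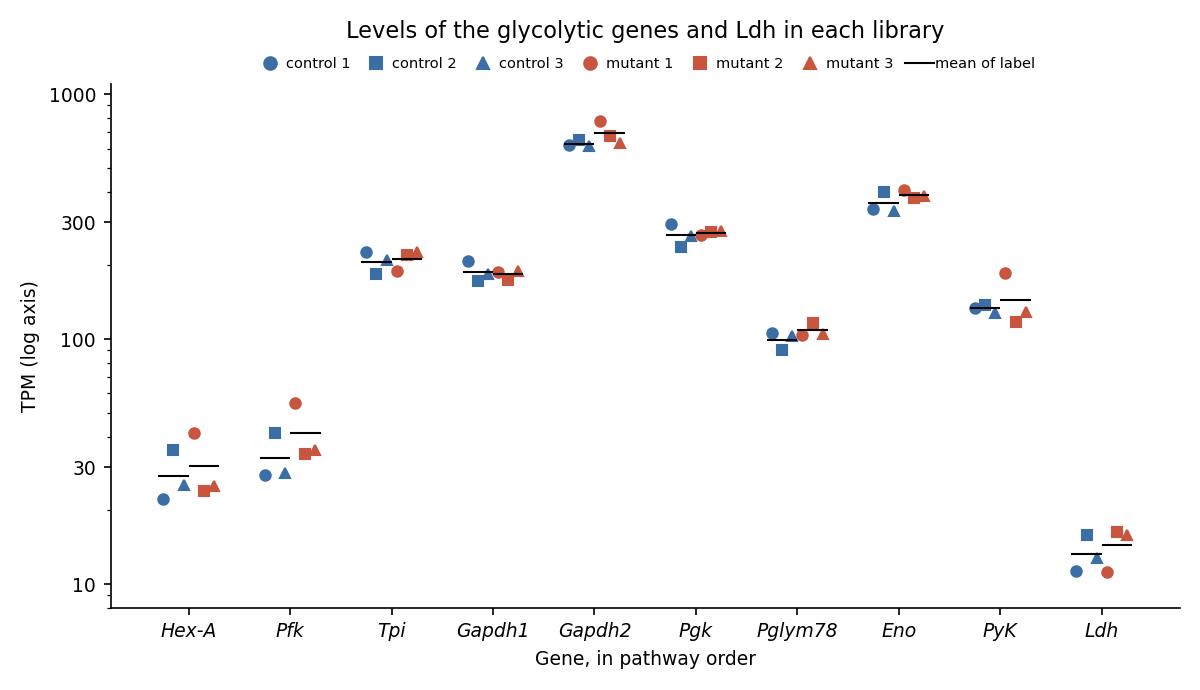
TPM of each of the 10 genes in each library, on a log axis, with the genes in the order of the pathway. Blue points are the 3 libraries labelled control, red points the 3 labelled mutant, the marker shape gives the replicate number, and black bars are the means per label. The points of the labels overlap for every gene, *Gapdh2* is the highest and *Ldh* the lowest, and the red circle of mutant replicate 1 is the top point of *Hex-A*, *Pfk*, *Gapdh2*, *Eno* and *PyK*.

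None of the 10 genes differed between the labels beyond the spread of the replicates. Genes were compared with limma on log2(TPM + 1), and a gene was called where its p, adjusted by Benjamini-Hochberg, was under 0.05 and its fold change over 1.7. No member was called, against 0.224% of all genes tested, and none had an unadjusted p under 0.05, a level that 388 of the 8051 genes reached. In limma the lowest unadjusted p of a member was 0.204, for *Pfk*, and the lowest adjusted p was 0.818, shared by *Pfk*, *Gapdh2*, *Pglym78* and *Eno*. The ranges of the labels overlapped for all 10, while 10.5% of all genes tested did not overlap (7.9% with the mutant label higher and 2.56% with it lower). The log2 fold changes ranged from -0.028 for *Gapdh1* to 0.32 for *Pfk*, with a median of 0.11. The median of all tested genes was 0.13, so that 3 members lay above it and 7 below. When each library was scaled by its median ratio to the gene means, the median of all genes was 0.0017, and 7 members (*Hex-A*, *Tpi*, *Pgk*, *Pglym78*, *Eno*, *PyK* and *Ldh*) turned from positive to negative. No direction is therefore given for the group.

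A lack of calls does not show equal levels, and the intervals give what these 6 libraries allow. The 95% interval of *Pfk* ran from 0.861-fold to 1.82-fold, the only one that reached past 1.7-fold. *Hex-A* followed with 0.722-fold to 1.61-fold, *Ldh* with 0.792-fold to 1.46-fold and *PyK* with 0.783-fold to 1.44-fold. For the other 6 genes the lower bounds were between 0.786-fold and 0.882-fold and the upper bounds between 1.22-fold and 1.38-fold.

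**Figure D2:**
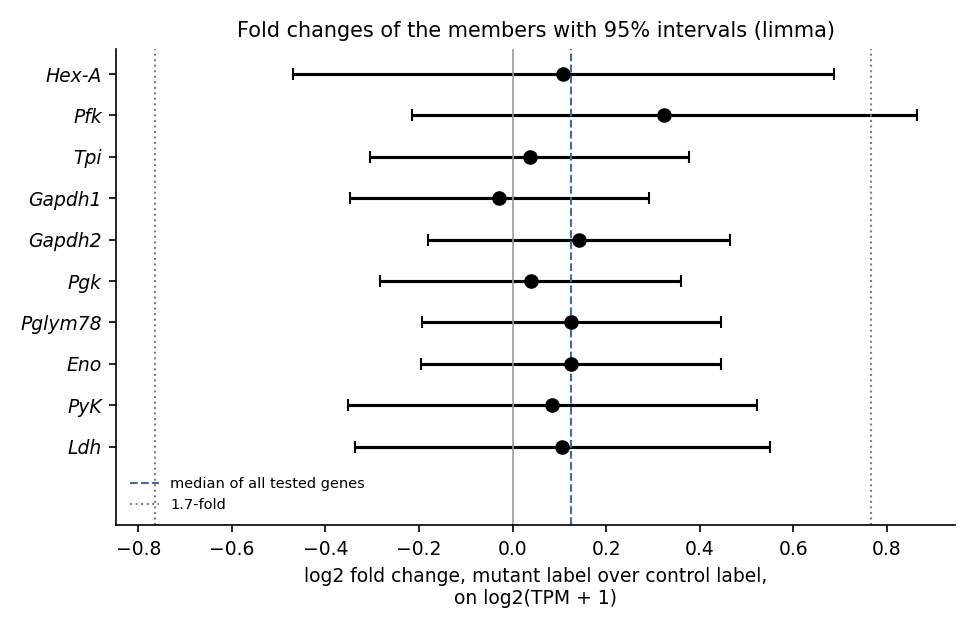
Log2 fold change of each member, mutant label over control label on log2(TPM + 1), with the 95% interval from limma (3 libraries per label). The intervals all cross 0, the interval of *Pfk* reaches past the dotted line at 1.7-fold, and the dashed line marks the median of all tested genes, 0.13.

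*Hex-A* (FBgn0001186) encodes the widely expressed hexokinase, which phosphorylates glucose. Its dm6 position is chromosome X, 9585675 to 9589813, plus strand. Its level was 22.33, 35.32 and 25.33 TPM in control replicates 1, 2 and 3, and 41.57, 24.01 and 25.26 TPM in mutant replicates 1, 2 and 3. Control replicate 2 and mutant replicate 1 stood well above the other 4 libraries, which lay close together. The means were 27.7 ± 6.8 and 30.3 ± 9.8 TPM (SD, n = 3 per label), and the log2 fold change was 0.11 (SE, the standard error, 0.25, adjusted p = 0.876 in limma).

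*Pfk* (FBgn0003071) encodes phosphofructokinase, the main control point of the pathway, (chromosome 2R, 10109740 to 10117457, plus strand). It was at 27.96, 41.34 and 28.42 TPM in the control replicates and at 54.95, 33.86 and 35.27 TPM in the mutant replicates. The same control replicate 2 and mutant replicate 1 were again the highest. Mutant replicates 2 and 3 were above control replicates 1 and 3 but below control replicate 2, so the labels overlapped. The means were 32.6 ± 7.6 and 41.4 ± 11.8 TPM (SD, n = 3 per label). The log2 fold change of 0.32 (SE 0.23, adjusted p = 0.818 in limma) was the largest among the members. Leaving out 1 library at a time gave values between 0.11 and 0.50, the lowest without mutant replicate 1 and the highest without control replicate 2.

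Phosphoglucose isomerase acts between hexokinase and phosphofructokinase, and aldolase acts between phosphofructokinase and triose phosphate isomerase. Neither was among the 10 genes. *Pgi*, the isomerase, was at 49.54, 67.36 and 50.82 TPM in the control replicates and at 80.74, 51.39 and 57.28 TPM in the mutant replicates. *Ald1*, the aldolase of most tissues, was at 164.46, 217.09 and 177.21 TPM and at 271.24, 155.61 and 167.47 TPM. Both were highest in mutant replicate 1 and next highest in control replicate 2, like *Hex-A* and *Pfk*, and neither was called (adjusted p = 0.818 and 0.928 in limma).

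*Tpi* (FBgn0086355, chromosome 3R, 30132981 to 30134599, minus strand) interconverts the triose phosphates that aldolase makes. It was at 226.63, 185.3 and 209.91 TPM in the control replicates and at 190.18, 220.04 and 227.3 TPM in the mutant replicates. Here control replicate 2 and mutant replicate 1 were the lowest of the 6 libraries. The means were 207 ± 20.8 and 213 ± 19.7 TPM (SD, n = 3 per label), and the log2 fold change was 0.036 (SE 0.15, adjusted p = 0.924 in limma).

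The paralogs *Gapdh1* (FBgn0001091, chromosome 2R, 7791901 to 7793380, minus strand) and *Gapdh2* (FBgn0001092, chromosome X, 15868145 to 15869661, plus strand) encode glyceraldehyde phosphate dehydrogenase. *Gapdh1* was at 208.1, 172.11 and 184.6 TPM in the control replicates and at 187.34, 174.83 and 190.21 TPM in the mutant replicates. Its means were 188 ± 18.3 and 184 ± 8.18 TPM (SD, n = 3 per label), and it was the only member with a negative log2 fold change (-0.028, SE 0.14, adjusted p = 0.935 in limma). *Gapdh2* was at 623.25, 649.52 and 612.28 TPM and at 778.76, 676.88 and 631.44 TPM, with mutant replicate 1 the highest. Its means were 628 ± 19.1 and 696 ± 75.4 TPM (SD, n = 3 per label), and it had a log2 fold change of 0.14 (SE 0.14, adjusted p = 0.818 in limma). Their coding sequences are similar, so the division of shared reads by RSEM adds an uncertainty to each that the sum does not have. The sum was 817 ± 17.8 TPM under the control label and 880 ± 76.2 TPM under the mutant label (SD, n = 3 per label). *Gapdh1* made up 25, 20.9 and 23.2% of the sum in the control replicates and 19.4, 20.5 and 23.1% in the mutant replicates. The shares overlapped between the labels (two-sided exact permutation test, p = 0.2, where 3 against 3 libraries allow no p under 0.1).

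*Pgk* (FBgn0250906, chromosome 2L, 2746880 to 2753068, minus strand) encodes phosphoglycerate kinase, which makes ATP. It was at 295.8, 238.37 and 263.48 TPM in the control replicates and at 266.49, 272.74 and 277.47 TPM in the mutant replicates, so that the mutant replicates lay inside the range of the control replicates. *Pglym78* (FBgn0014869, chromosome 3R, 29148248 to 29149901, plus strand), the phosphoglycerate mutase, was at 105.47, 90.08 and 103.29 TPM and at 104.32, 116.74 and 104.86 TPM. Control replicate 2 was the lowest library for both genes. The means were 266 ± 28.8 and 272 ± 5.51 TPM for *Pgk* and 99.6 ± 8.33 and 109 ± 7.02 TPM for *Pglym78* (SD, n = 3 per label). Their log2 fold changes were 0.039 and 0.13 (SE 0.14 for each, adjusted p = 0.914 and 0.818 in limma).

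*Eno* (FBgn0000579, chromosome 2L, 1724768 to 1729636, minus strand) encodes enolase, which forms phosphoenolpyruvate. It was at 340.95, 400.39 and 333.09 TPM in the control replicates and at 405.6, 377.25 and 385.43 TPM in the mutant replicates. The mutant replicates were all above control replicates 1 and 3, and control replicate 2 lay among them. The means were 358 ± 36.8 and 389 ± 14.6 TPM (SD, n = 3 per label), and the log2 fold change was 0.12 (SE 0.14, adjusted p = 0.818 in limma). *Eno* overlaps *Rrp40* on the opposite strand by 362 bases of exon. *Rrp40* was listed at 51.4 to 69.45 TPM, and it is not stated whether the counting used the strand. The exons of *Pgk* and *Pglym78* overlap the opposite genes *Cwc25* and *eIF2D* by 65 and 6 bases, and the exons of the other 7 members overlapped no other gene.

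*PyK* (FBgn0267385, chromosome 3R, 22367536 to 22372746, plus strand) encodes pyruvate kinase, the last step of glycolysis. It was at 134.45, 137.42 and 128.4 TPM in the control replicates and at 186.84, 117.81 and 128.79 TPM in the mutant replicates. Mutant replicate 1 was far above the other 5 libraries, and mutant replicate 2 was the lowest of all. The means were 133 ± 4.6 and 144 ± 37.1 TPM (SD, n = 3 per label), and the log2 fold change was 0.085 (SE 0.19, adjusted p = 0.870 in limma). Without mutant replicate 1 it was -0.11, so 1 library set its sign.

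*Ldh* (FBgn0001258, chromosome 3L, 6259105 to 6262694, minus strand) encodes lactate dehydrogenase. Its libraries fell in another order than those of *Hex-A* and *Pfk*, though the enzymes above shared no common order. It was at 11.3, 15.88 and 12.81 TPM in the control replicates and at 11.25, 16.38 and 15.81 TPM in the mutant replicates. Control replicate 1 and mutant replicate 1 were the lowest, and control replicate 2 lay beside mutant replicates 2 and 3. The means were 13.3 ± 2.33 and 14.5 ± 2.81 TPM (SD, n = 3 per label), and the log2 fold change was 0.11 (SE 0.19, adjusted p = 0.846 in limma). With 1 library left out the log2 fold change lay between 0.0027 (without control replicate 1) and 0.27 (without mutant replicate 1). Mutant replicate 1 thus held the highest *PyK* and the lowest *Ldh* of the series. As a share of *PyK*, *Ldh* was at 8.4, 11.6 and 9.98% in the control replicates and at 6.02, 13.9 and 12.3% in the mutant replicates, a ratio that does not depend on how a library was scaled. The mutant replicates held both the lowest and the highest of these shares, and the labels did not separate (two-sided exact permutation test on the log2 ratio, p = 1). The difference of the log2 ratio, mutant label minus control label, was 0.028. It was 0.40 without mutant replicate 1, -0.20 without mutant replicate 2, and 0.51 without both control replicate 2 and mutant replicate 1. The 8 markers of differentiated muscle summed to 65.73, 32 and 39.18 TPM in the control replicates and to 51.27, 46.83 and 47.78 TPM in the mutant replicates. The sum was thus highest in control replicate 1 and mutant replicate 1, the libraries lowest in *Ldh*, and so were 5 of the 8 markers, while the other 3 had another order. None of the 5 exceeded 5.17 TPM in any library. The most abundant marker, *Act57B*, was highest in mutant replicates 2 and 3, at 27.7 and 28.42 TPM. *Mlc2*, the next, was highest in control replicates 1 and 3. The part of muscle in the level of *Ldh* was not tested.

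The genes with the pattern most like that of *Ldh* were sought among 6245 tested genes with a mean of at least 10 TPM. Likeness was the root mean square difference of log2(TPM + 1), centred on the mean of each gene, over the 6 libraries. *T48* was the nearest, with a difference of 0.049 where *Ldh* itself varied by 0.22 about its mean. It was at 29.17, 37.29 and 31.41 TPM in the control replicates and at 29.66, 39.4 and 38.05 TPM in the mutant replicates. *Hsp67Ba*, a gene of the small heat shock protein cluster, followed at 0.050, and *sn*, which encodes the actin bundling protein fascin, at 0.067. These 3 were the best of many candidates over few libraries, and they are given as a description.

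**Figure D3:**
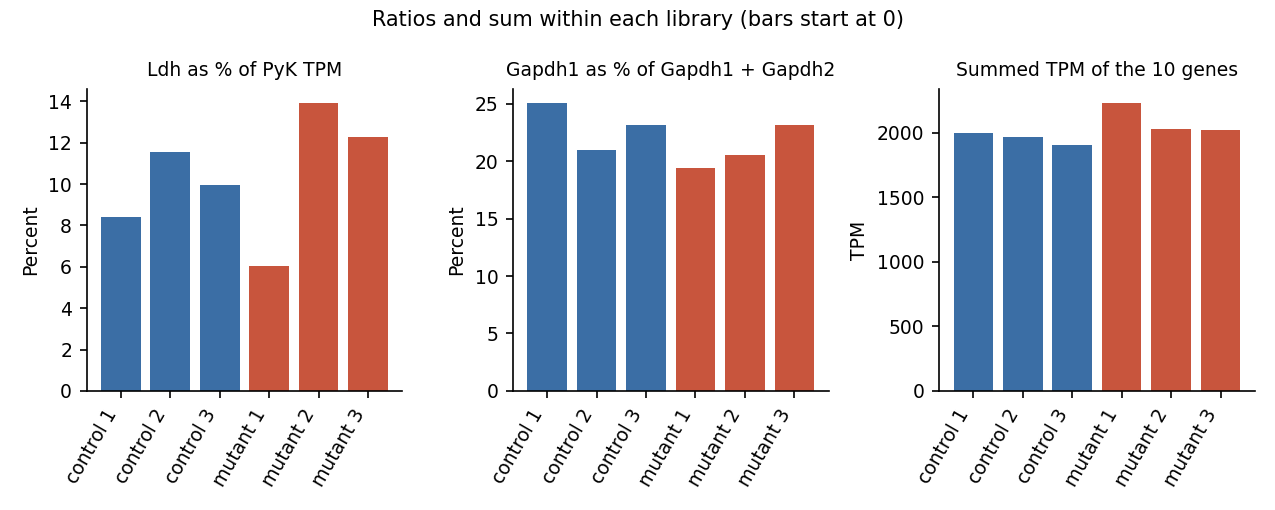
Quantities within each library, with blue bars for the libraries labelled control and red bars for those labelled mutant. *Ldh* as a percent of *PyK* ran from 6.02 to 13.9% within the mutant label alone, *Gapdh1* was 19.4 to 25% of both *Gapdh* genes, and the summed TPM of the 10 genes ran from 1902 to 2227.

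The summed TPM of the 10 genes was 1996, 1966 and 1902 in the control replicates and 2227, 2031 and 2022 in the mutant replicates. The 3 mutant replicates were all above the 3 control replicates, as they were for 7.9% of all genes tested. The ratio of the label means on the log scale was 1.07-fold. On the log2 scale the difference was 0.098, beside a median of 0.13 for all tested genes. It was 0.052 without mutant replicate 1. This sum is carried by *Gapdh2* and *Eno*, which were the most abundant, and the difference became -0.033 when the libraries were scaled by their median ratio. The sum was not tested.

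Most of the spread among the glycolytic genes lay between libraries of the same label. Which libraries were highest went with the length of the transcripts. The size of the spread did not go with length alone. *Eno*, at 2664 bases, varied within labels about as little as the shorter *Pgk* (standard deviation 0.11 for each). *Hex-A*, *Pfk*, *Eno* and *PyK* were the only members with a canonical transcript over 2 kb (2512, 3217, 2664 and 2109 bases). The boundary of 2 kb was not planned, and it lies between *PyK* and *Pgk* (1893 bases). In all 4 of them control replicate 2 and mutant replicate 1 were the highest of the 6 libraries, and in none of the 6 shorter members was this so. For *PyK*, control replicate 2 was only just above control replicate 1, at 137.42 against 134.45 TPM. In the 6 related lists below, those libraries were both highest for 71% of the 31 tested genes of 2 kb or more. They were both highest for 22.7% of the 22 shorter ones, among them *Ald1* (1747 bases) and *Mdh2* (1335 bases). Among all tested genes, those libraries were both highest for 63.2% of the 3994 genes with transcripts of 2 kb or more and for 14% of the 4019 shorter ones. They were both lowest for 2.05 and 25.5% of these genes. Across 8013 tested genes with a known length, the correlation of log2 transcript length with the deviation from the mean of each gene was 0.44 in control replicate 2 and 0.56 in mutant replicate 1. It was -0.50 and -0.57 in control replicates 1 and 3, and -0.24 and -0.04 in mutant replicates 2 and 3. Genes are not independent replicates, and these correlations describe the libraries. The part of transcript length, or of the RNA and library quality that can go with it, in the levels of the glycolytic genes was not tested. The 8 wing disc markers also had their highest sums in mutant replicate 1 (766 TPM) and control replicate 2 (691 TPM).

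**Figure D4:**
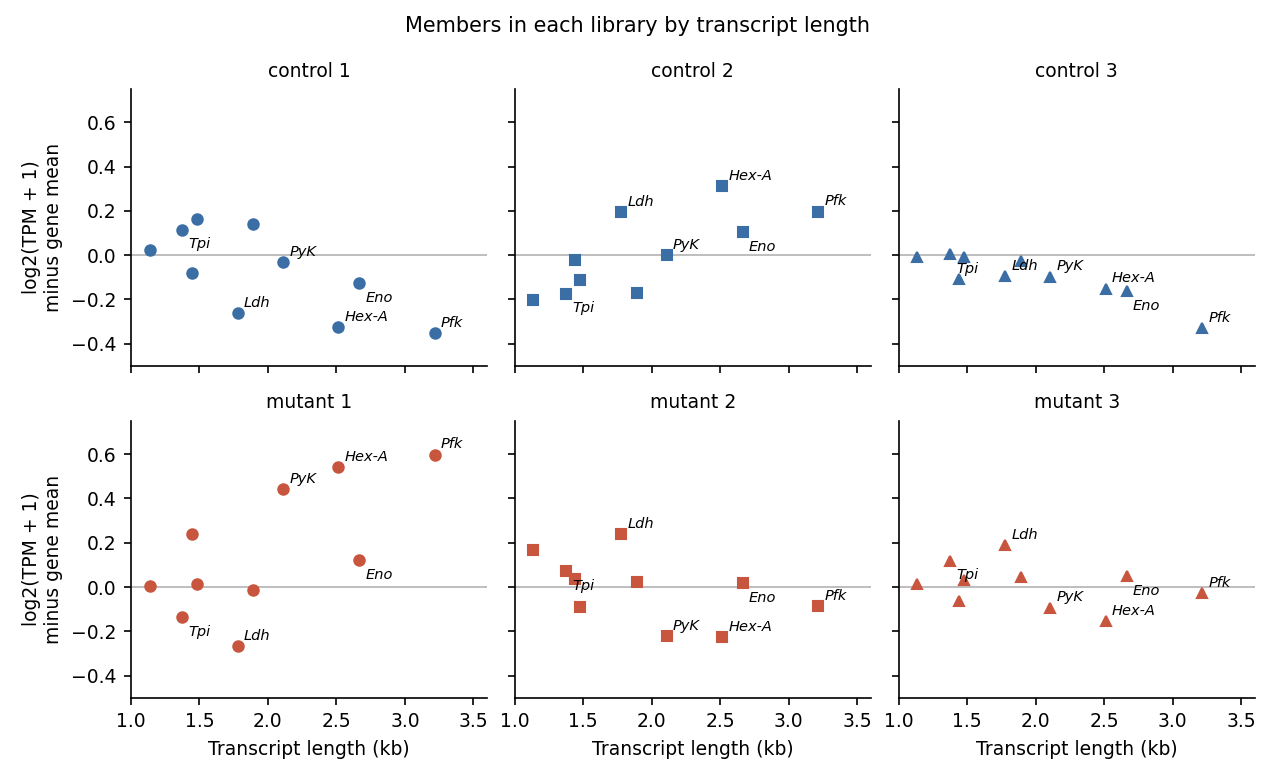
Deviation of each member from its mean over the 6 libraries, on log2(TPM + 1), against the length of its canonical transcript in kb, with 1 panel per library. The long transcripts *Hex-A* and *Pfk* lie above 0 in control 2 and mutant 1 and below 0 in the other 4 libraries. *Eno* also lies above 0 in mutant 2 and mutant 3, and *PyK* lies at 0 in control 2. *Ldh*, at 1778 bases, lies above 0 in control 2, mutant 2 and mutant 3.

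The spread within a label differed among the members. On log2(TPM + 1), the standard deviation within labels was 0.38 for *Hex-A*, 0.35 for *Pfk* and 0.25 for *PyK*, which placed them above 85.6, 82.9 and 76.7% of the tested genes of like level (within 0.5 on the log2 scale). *Gapdh1*, *Gapdh2*, *Pgk*, *Pglym78* and *Eno* all had a standard deviation of 0.11, above at most 17.1% of the genes of like level. *Ldh*, at 0.26, was near the middle with 54.7%.

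The comparison was repeated without control replicate 2 and mutant replicate 1, a choice made after the levels had been seen. With 2 libraries per label, 168 of 7928 genes were called (2.12%), and again no member was. *Ldh* then had the lowest adjusted p of the 10, at 0.0876 in limma, with a log2 fold change of 0.39 (SE 0.11). *Pfk* followed with 0.28 (SE 0.10, adjusted p = 0.150 in limma), and *PyK* turned to -0.092. When the slope of each library on transcript length was entered in the fit of all 6 libraries instead, *Ldh* was at 0.12 and *Pfk* at 0.090, with adjusted p of 0.914 and 0.841 in limma.

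The genes around the pathway were read from 6 lists chosen by function. Of their 65 genes, 53 were tested and none was called, either higher or lower, and none had an unadjusted p under 0.05 in limma. Their median log2 fold change was 0.11, beside 0.13 for all tested genes. The labels did not overlap for 2 of the 53 genes, both higher under the mutant label, where 7.9% of all genes tested were higher in this way. These were *Pdha*, of the pyruvate dehydrogenase complex, and *Pgm1*, the phosphoglucomutase, which was chosen after its values were seen.

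Among the 15 other glycolytic genes 6 were tested, with a median log2 fold change of 0.014. The other 9 stayed under 1 TPM in every library. They were the aldolase *Ald2*, the hexokinases *Hex-C*, *Hex-t1* and *Hex-t2*, the mutase *Pglym87*, and *CG2964*, *CG7069*, *CG7362* and *CG12229*, which resemble pyruvate kinase. The regulatory enzyme *Pfrx* was between 9.01 and 19.21 TPM, and *fbp*, which encodes the gluconeogenic fructose bisphosphatase, was between 72 and 90.32 TPM.

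All 10 genes for the further use of pyruvate and NADH were tested, with a median log2 fold change of 0.13. *Pdha* was at 77.23, 88.04 and 85.88 TPM in the control replicates and at 98.36, 95.77 and 92.34 TPM in the mutant replicates (log2 fold change 0.19, adjusted p = 0.818 in limma). Its partner *Pdhb* was between 120.92 and 142.41 TPM. *Got1* and *Mdh1*, cytosolic enzymes of the malate and aspartate shuttle, were between 107.19 and 137.55 TPM and between 111.23 and 133.25 TPM. *Mdh1*, which regenerates NAD+ as *Ldh* does, was thus listed well above *Ldh* in every library.

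For sugar supply 9 of 12 genes were tested, with a median of 0.17. *Glyp*, the glycogen phosphorylase, was at 48.96, 46.46 and 34.13 TPM in the control replicates and at 95.62, 29.81 and 36.42 TPM in the mutant replicates, with mutant replicate 1 far above the rest. *Glys*, the glycogen synthase, was between 65.01 and 109.92 TPM, *UGP* between 37.34 and 59.18 TPM and the trehalase *Treh* between 24.98 and 36.14 TPM. All 7 genes of the pentose phosphate pathway were tested, with a median of 0.010. The transketolase gene *CG8036* was at 248, 363.17 and 243.88 TPM and at 499.46, 286.48 and 316.23 TPM, highest in mutant replicate 1 and control replicate 2. *Taldo*, *Rpe* and *Rpi*, with shorter transcripts, did not exceed 346.62, 186.93 and 151.87 TPM, and for each of them the highest library was control replicate 1.

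The 9 genes of the citric acid cycle were all tested, with a median of 0.10. *mAcon1*, the aconitase, was at 98.42, 148.03 and 108.37 TPM in the control replicates and at 201.05, 102.71 and 121.03 TPM in the mutant replicates, highest in the same libraries as *Hex-A*. *Fum1* ran only from 202.45 to 212.41 TPM, *Scsalpha1* from 209.88 to 262.09 TPM and *Mdh2* from 96.96 to 147.47 TPM.

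All 12 regulators were tested, with a median of 0.18. *crc*, which encodes the ATF4 factor that activates *Ldh* under mitochondrial stress, was at 903.88 to 1013.74 TPM and had a log2 fold change of -0.014 (adjusted p = 0.965 in limma). *scyl*, a target of the hypoxia response, was at 132.31, 234.62 and 179.21 TPM in the control replicates and at 268.24, 230.54 and 207.82 TPM in the mutant replicates (log2 fold change 0.40, adjusted p = 0.818 in limma). *tgo*, the HIF beta subunit, was between 28.18 and 55.52 TPM and *Myc* between 34.1 and 70.17 TPM, and both were highest in mutant replicate 1 and control replicate 2. *Thor*, the translation inhibitor 4E-BP, was at 14.87, 9.52 and 14.02 TPM and at 21.01, 5.14 and 7.7 TPM. It was not called with all 6 libraries (adjusted p = 0.818 in limma). Without control replicate 2 and mutant replicate 1 it was called as lower (log2 fold change -1.08, SE 0.16, adjusted p = 0.0133 in limma). In that fit 2.12% of all genes tested were called, either higher or lower. *Thor* was named after its values were seen.

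**Figure D5:**
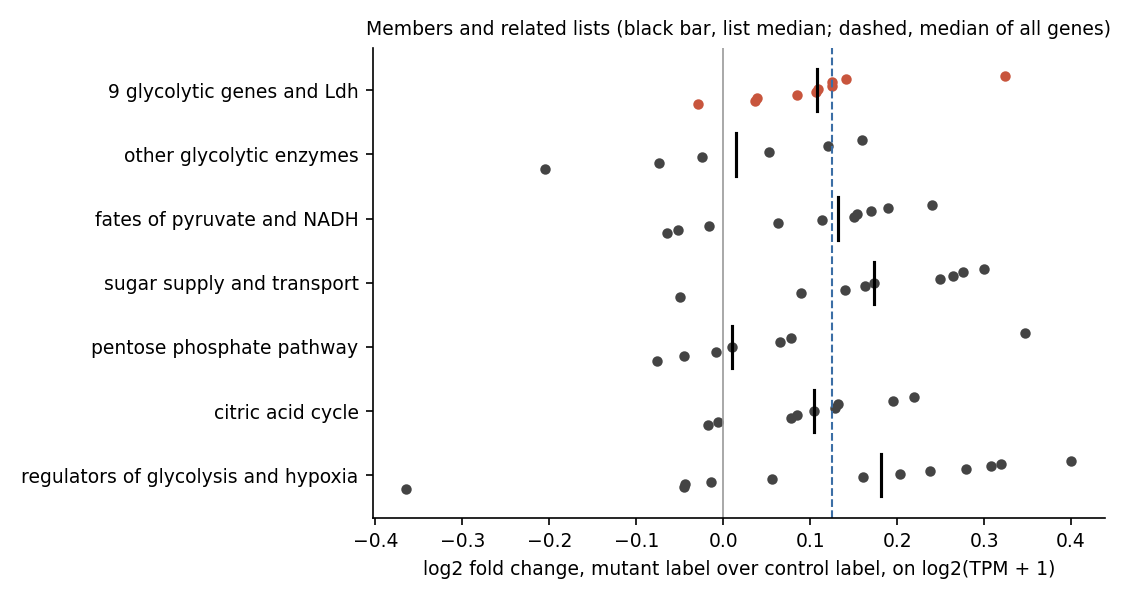
Log2 fold changes, mutant label over control label on log2(TPM + 1), of the 10 members (red) and of the tested genes of 6 related lists (grey), each point 1 gene. Black bars are the medians of the lists, between 0.010 and 0.18, and the dashed line is the median of all tested genes, 0.13.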

How the data were processed

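Poly-A RNA of pooled wing discs was sequenced as paired reads in 6 libraries. The authors aligned the reads to dm6 with STAR 2.4.0j, keeping alignments to at most 10 loci, and quantified FlyBase genes with RSEM 1.2.21. The deposited values are TPM per gene and library, which keep no sequencing depth. The paper refers to a supplemental list of mapped reads, which was not used here, so no counting interval is given. Symbols and gene models (dm6 coordinates) from Ensembl and RefSeq tables were found for 16402 of the 16455 genes, and no sequence was used.

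Genes were kept where 1 or more libraries reached 1 TPM, which left 8051. Their log2(TPM + 1) was fitted by limma 3.58.1 under R 4.3.3 with the label as the only term, and fold changes on this scale understate those of low genes. All p-values were adjusted over all tested genes. The 3 samples of a label are described as biological replicates. Whether each came from its own cross or collection is not given in the sources used here. The limma p-values therefore set the difference of the labels against the spread between these samples, which limma moderates over all tested genes. The fit was tested on simulated data. Ratios were tested with exact permutations over libraries. Alternatives were the pseudocount, the filter, scaling, a replicate block, a variance trend, no fold change threshold, each library left out, and, added after the data were seen, 2 libraries left out and a length covariate. The members and lists were chosen with earlier results of these data known. Named genes were all members, the 4 most abundant tested genes of each list, called genes, and the 3 genes nearest *Ldh*, with the label checks. Figures were drawn with matplotlib 3.10.9.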

Additional observations from a re-analysis of the deposited data

How the results depend on the processing

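No member was called under any of the 15 alternatives, and the lowest adjusted p of a member in any of them was 0.0876 in limma. The number of all genes called, 18, became 11 with no filter, 3 with at least 1 TPM in all libraries, 31 with the replicate number as a block, 28 with the length covariate and 168 without control replicate 2 and mutant replicate 1, and with 1 library left out it lay between 6 and 35. The lowest value came without control replicate 1 (9 without control replicate 3, 11 without mutant replicate 3), and the highest came without mutant replicate 1. Genes called in the 6 related lists were 0 in every alternative but the one without those 2 libraries, which called 1, *Thor*. The block changed no member's call. The deviations of same-numbered libraries correlated at -0.026, -0.35 and 0.16 over genes. These values cannot decide whether the numbers pair the samples, since the length pattern of single libraries also enters them.

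Of 140 member values under alternatives, 120 kept their sign and 20 did not. The other filters, the replicate block and the variance trend leave the log2 fold change of a member as it was. Its sign could not change in these, so the count of 120 overstates how stable the signs were. With scaling by the median ratio, *Hex-A* was at -0.018, *Tpi* at -0.094, *Pgk* at -0.091, *Pglym78* at -0.0043, *Eno* at -0.0059, *PyK* at -0.045, *Ldh* at -0.013, and the sum at -0.033. With the length covariate, *Hex-A* was at -0.15, *PyK* at -0.042 and *Gapdh1* at 0.0028. Without the 2 libraries, *Pgk* was at -0.021 and *PyK* at -0.092. With 1 library left out, *Hex-A* ranged from -0.14 to 0.29, *Tpi* from -0.042 to 0.11, *Gapdh1* from -0.091 to 0.046, *Pgk* from -0.036 to 0.12 and *PyK* from -0.11 to 0.22. The causes were not tested. TPM keep no depth and the mapped reads were not used, so the counting error of the low level of *Ldh* was not estimated.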
